A study of Oryza sativa Japonica Group with 21 samples.

Results

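The subject is a group of 285 probe sets whose signal fell at every step through the early development of the rice stamen. They were selected on the stage means of the deposited values: a probe set was taken when its mean log2 value fell from stamen stage 2 to 3, 4, 5 and 6 in turn, with a difference of at least 2 between stages 2 and 6 and of at least 1 between stages 3 and 6. Of 57258 probe sets other than controls, 288 met the rule. Of these, 3 were left out because they read a MADS-box gene (OsMADS6), a YABBY gene (OsYAB3) and AGO18. The 285 members include 214 with 1 annotated gene, which cover 205 genes, and 71 with none. A name that says what the product is was found for 46 genes, and these carry most of the description below.

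Rice of the japonica cultivar Zhonghua 15 was sampled on 21 Affymetrix arrays, in 7 groups of 3 that the design text calls biological replicates. Stamens of stages 2, 3, 4, 5 and 6 were microdissected, each stage being checked on paraffin sections of the other part of the same panicle. The leaf groups were the primordium of leaf 3, dissected from embryos in seeds soaked for 2 to 3 days, and leaf 3 just after it expanded. Plants grew in chamber pots or in the field, without a statement of which sample came from where. For all groups the sample notes give growth at about 30 °C with 11 h light and 13 h dark, and 50 to 300 ng of RNA. The RNA amount of each array is not given. The labels name no mutation, transgene or treatment in any group.

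The stamen starts as a small mound of dividing cells on the floral meristem. It then forms a filament and an anther whose lobes become layered around the cells that will enter meiosis, and genes of the undifferentiated primordium are replaced by those of the anther layers. Leaf and stamen are homologous lateral organs, so a gene that falls in the stamen may still be used in a leaf.

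Values are log2 signals per probe set as deposited, made by RMA, so a difference of 1 is a 2-fold change. Levels of different probe sets cannot be ranked against each other. Arrays of 1 group correlated at 0.981 to 0.995 in leaf primordium and 0.984 to 0.995 in the stamen groups, but only at 0.931 to 0.949 in expanded leaf. Early anther markers (7 genes) averaged 6.63 to 7.18 in the stage 2 arrays and 8.72 to 8.98 in those of stage 6, against 5.18 to 5.68 in leaf. Green tissue markers (8 genes) averaged 11.7 to 13.3 in expanded leaf and 6.35 to 7.48 in all other groups. Carpel and ovule markers (3 genes) stayed between 5.77 and 6.26 in every stamen and leaf array. Floral meristem markers (9 genes) averaged 7.14 to 7.44 at stage 2, 6.06 to 6.95 at stage 3 and 5.92 to 6.16 at stage 6. All leaf arrays lay between those of stages 2 and 6 for this list. It includes the member WOX11, which the rule chose for its fall, so the list average is not independent of the rule. Between stages 2 and 6, limma called 5 of the 9 genes lower, WOX11 among them, and FON1 higher. Lemma and palea markers (4 genes) averaged 7.23 to 7.59 at stage 2, 6.66 to 7.07 at stage 4 and 6.90 to 7.55 at stage 6. Whether the stage 2 samples held neighbouring tissue was not tested.

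RNA quality moved with the same stages. The difference between control probes at the 3' and 5' ends of the actin and GAPDH transcripts, which is larger where RNA is more degraded or its amplified copies shorter, was 3.19 to 3.41 at stage 2. Stage 3 arrays gave 1.45 to 2.69, those of stage 4 gave 1.96 to 2.07, those of stage 5 1.86 to 2.16 and those of stage 6 1.27 to 1.94. Leaf primordium read 1.64 to 1.90, and expanded leaf 1.73 and 1.96 in replicates 1 and 2 but 3.37 in replicate 3. With this difference as a covariate, chosen for the rule after the values were seen, 195 of the 285 members still met the rule, 34 of them among the 47 named probe sets. Stage 2 minus stage 6 remained above 0 in 282 members and at 2 or more in 212. It shrank by more than 1.5 times in 59 members and grew by as much in 22. The slope of this fit rests on differences within groups, of which expanded leaf replicate 3 made up 36.7% of the sum of squares. Fitted on the 15 stamen arrays alone, the covariate left 221 members under the rule, 36 of them named, and the fall shrank by more than 1.5 times in 34 and grew by as much in 33. The values of both fits are given below beside each named gene that either moved so far or took out of the rule, first over all arrays and then over the stamen arrays.

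**Figure D1:**
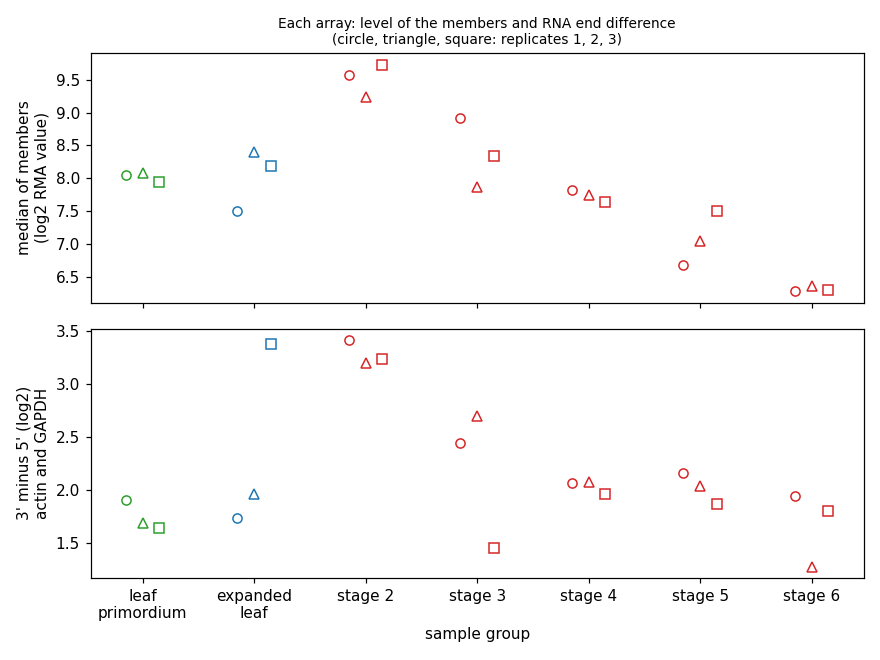
Each point is 1 array, by group, with the median log2 RMA value of the 285 members above and the log2 difference between 3' and 5' control probes of actin and GAPDH below. The members' median fell from 9.23 to 9.73 at stage 2 to 6.28 to 6.36 at stage 6, and the 3' to 5' difference was highest in the stage 2 arrays and in expanded leaf replicate 3.

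The course of the members over the stages chose them, so it is given as a description. From a median level of 9.47 at stage 2 they passed to 8.31 at the next stage, then to 7.68 and 7.01, and ended at 6.37, while the median of all probe sets stayed between 5.84 and 5.87. The fall from stage 2 to stage 6 ranged from 2.00 to 6.54 with a median of 2.81, and it was at least 3 in 121 members and at least 4 in 45. In whole dissected organs, fewer cells of a type and less RNA per cell cannot be told apart.

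The fall was not evenly spread over the 4 steps. The first step, from stage 2 to stage 3, was the largest in 133 members, the next in 51, the one from stage 4 to 5 in 55 and the last in 46. In 72 members the largest step made up more than 50% of the fall. From stage 4 to stage 6 alone the median fall was 1.30, and 189 members fell by at least 1 over those stages.

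Single arrays show how steady the fall was. Every stage 2 array lay above every stage 6 array in all 285 members, which the rule all but sets (17.8% of all probe sets). Neighbouring stages were separated less often: stages 2 and 3 in 124 members (9.29% of all probe sets), 3 and 4 in 57 (4.61%), 4 and 5 in 110 (9.27%), and 5 and 6 in 89 (7.91%). These steps also entered the rule, and nothing is read from the shares. Only 3 members had no overlap at any of the 4 steps, namely LOC4327248, LOC9267458 and a probe set without a gene, and 49 members had overlap at every step. The word steady thus holds for stage means more than for single arrays. In limma's fit 277 members were called lower at stage 6 than at stage 2 (3.47% of all probe sets), again on the contrast the rule used.

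**Figure D2:**
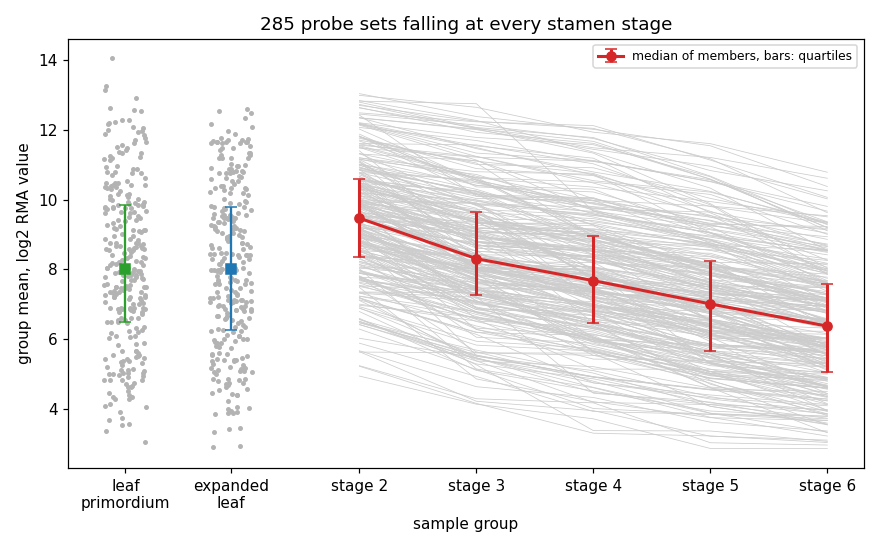
Group means (log2 RMA value) of the 285 members, with a thin line per member over the 5 stamen stages, dots for the leaf groups, and the median with quartiles. The median fell from 9.47 at stage 2 to 6.37 at stage 6 and stood at 8.02 in leaf primordium and 8.01 in expanded leaf.

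Within a stage, the members moved together among the replicate arrays. The same arrays entered the rule through the stage means, so the shares below are not independent of it and are a description. At stage 3, replicate 1 was the highest array in 222 members (77.9%, against 33.7% of all probe sets) and replicate 2 the lowest in 211 (74.0%, against 34.8%). At stage 5, replicate 3 was the highest in 224 members (78.6%, against 32.6%) and replicate 1 the lowest in 196. In the 377 other probe sets that fell by at least 2 between stages 2 and 6, the shares were between: stage 3 replicate 1 was highest in 54.4% and replicate 2 lowest in 44.8%, and stage 5 replicate 3 was highest in 52.0%. The median level of the members was 8.92, 7.86 and 8.34 in stage 3 replicates 1, 2 and 3, and 6.68, 7.04 and 7.50 in those of stage 5. So stage 3 replicate 2 stood near the stage 4 arrays (7.64 to 7.82), and stage 5 replicate 3 lay closest to them too. The reason was not tested. Without stage 3 replicate 1 the rule took 203 probe sets, 187 of them members, without stage 3 replicate 2 it took 287 (247 members), and without stage 5 replicate 3 it took 261 (254 members).

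Members nearest the threshold show how sharp the limit is. Just inside it were LOC4327499, with a fall of 2.013, and a pair of probe sets without a gene at 2.012 and 2.003. Just outside were LOC4332305 at 1.995, LOC4331647 at 1.993 and LOC4346357 at 1.992, each of which also fell at every step.

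Leaf levels took no part in the rule, and they split the members. Expanded leaf was higher than leaf primordium in 83 of the 285 members (9.84% of all probe sets were called this way) and lower in 80 (12.8%), by limma at a 2-fold difference or more and a Benjamini-Hochberg adjusted p under 0.05. The median difference was 0.06 in the members and 0.04 in all probe sets. Members were called more often than probe sets at large, and about equally in both directions. Those 377 other falling probe sets were called higher in 80 (21.2%) and lower in 83 (22.0%), against 29.1% and 28.1% of the members. Brighter probe sets are called more often: among those above the median mean level, 76 and 74 of 252 members were called, against 13% and 22.7% of all such probe sets. That mean level includes the stamen stages that chose the members, so nothing is read from the excess. Without expanded leaf replicate 3, whose 3' to 5' difference stood apart, 90 members were called higher and 84 lower.

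Set against the midpoint between their own stage 2 and stage 6 levels, 82 members were high in both leaf groups and 68 in neither. A further 68 were high in expanded leaf alone and 67 in leaf primordium alone. Median levels in the last class were 9.77 in leaf primordium and 6.10 in expanded leaf, and in the class high in expanded leaf alone 6.62 and 9.68. Both classes fell through the stamen stages by similar amounts, with medians of 2.81 and 2.93. In the class high in leaf primordium alone, 41 of 67 members had their largest step between stages 2 and 3. The corresponding counts were 27 of 68 for expanded leaf alone, 33 of 82 for both and 32 of 68 for neither, and the differences between them were not tested.

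**Figure D3:**
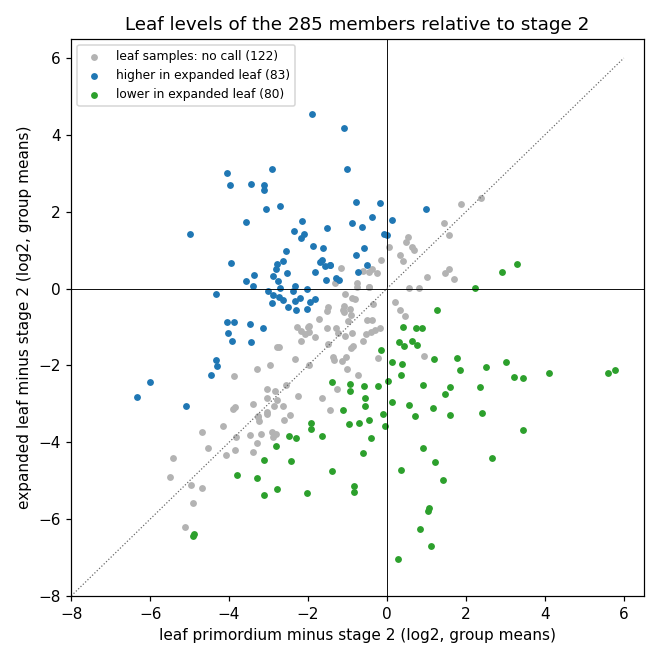
Each point is 1 of the 285 members, placed by its leaf primordium level (x axis) and its expanded leaf level (y axis), both as the log2 difference from its stage 2 mean; colours show the limma call between the leaf groups and the dotted line marks equal leaf levels. The 83 members called higher in expanded leaf lie above the line and the 80 called lower lie below it.

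The mean over the 5 stamen stages was higher than leaf primordium in 75 members (7.59% of all probe sets) and lower in 85 (6.71%). Against expanded leaf it was higher in 76 (13.3%) and lower in 95 (9.97%). In 34 members the stamen mean was above both leaf groups (4.4% of all probe sets), and in 28 it was below both (2.13%). The stage values behind this mean also chose the members, which had to stand well above the floor at stage 2. These counts are therefore a description, and nothing is read from the shares. Among the named genes, LOX1.1, PID and CYP734A6 were the ones above both, and EXLA1 and SAT4 the ones below both. The other 31 of the 34 have no informative name. LOX1.1 encodes a lipoxygenase, PID a kinase that steers auxin carriers, and CYP734A6 an enzyme that inactivates brassinosteroids.

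Transcription factors and developmental regulators made up 10 of the named genes, with falls from 2.56 to 4.82. Of these 10, 5 were lower in expanded leaf than in leaf primordium (RFL, GATA15, G1L2, HOX12 and NAC4), NAC5 was higher, and 4 were not called, against 12.8% and 9.84% of all probe sets called lower and higher. The grouping by role was made by hand after the names and values were seen, and nothing is read from such small counts.

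WOX11 encodes a WUSCHEL-related homeobox factor known in rice for crown root growth. It read 8.94, 8.36 and 8.99 in the stage 2 arrays, then 6.27, 5.31 and 5.02 at stage 3 and 4.64, 5.04 and 5.09 at stage 4. At stage 5 it read 4.26, 4.53 and 4.06, and at stage 6 3.96, 3.82 and 4.06. The stage 2 arrays stood far above all the others, and 67.0% of the fall of 4.82 came in the first step. Leaf primordium (4.58, 4.80 and 4.47) and expanded leaf (5.86, 5.35 and 4.38) were not called different (log2 difference 0.58, SE 0.32, limma adjusted p = 0.194). The leaf primordium arrays lay among those of stages 4 and 5, and expanded leaf replicates 1 and 2 lay above every array of stages 4 to 6.

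RFL is the rice LEAFY ortholog, a regulator of inflorescence branching. Its stage 2 arrays read 9.45, 9.13 and 8.05, those of stage 3 7.76, 8.37 and 6.35, and those of stage 4 6.75, 6.56 and 7.13. Stage 5 gave 6.39, 6.44 and 6.55, and stage 6 gave 6.40, 6.12 and 6.42. The arrays of stages 5 and 6 overlapped, and most of the fall of 2.56 had passed by stage 4. Leaf primordium stood above all stamen arrays at 9.95, 10.74 and 10.75, and expanded leaf below them at 5.93, 5.14 and 5.66 (difference -4.91, SE 0.41, limma adjusted p = 3.18e-08). With the 3' to 5' covariate the fall became 1.74 and 0.52, and RFL no longer met the rule in either fit.

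GATA15, a zinc finger factor that in rice represses outgrowth of the bract below the panicle, read 8.21, 8.06 and 7.40 at stage 2. It read 7.89, 8.11 and 5.87 at stage 3 and 6.73, 6.18 and 6.39 at stage 4, then 5.11, 5.59 and 5.63 at stage 5 and 5.29, 4.38 and 4.51 at stage 6. Its 4 steps were of similar size, the largest being 31.4% of the fall, although stages 2 and 3 overlapped. In leaf primordium it read 6.31, 6.35 and 6.08, and in expanded leaf 3.98, 4.08 and 4.07, without overlap (difference -2.20, SE 0.42, limma adjusted p = 3.57e-04). The covariate reduced the fall from 3.17 to 2.06 and 0.67, both outside the rule.

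G1L2, of the ALOG family of plant developmental regulators, fell from 9.99 ± 0.17 (SD, n = 3) at stage 2 to 7.10 ± 0.30 at stage 6, with a gap between the arrays at 3 of the 4 steps. Its fall of 2.89 was 0.07 with the 3' to 5' covariate over all arrays and 1.71 over the stamen arrays, and it met the rule in neither fit. Its expanded leaf arrays were spread widely, at 5.54, 8.07 and 10.43, against 10.59, 10.60 and 9.88 in leaf primordium. The leaf difference of -2.34 (limma adjusted p = 0.0179) became -1.10 (adjusted p = 0.0895) without expanded leaf replicate 1 and -3.55 without replicate 3, so a single array decided its call. It also missed the threshold without leaf primordium replicate 1 or 2 (adjusted p = 0.0533 and 0.0568). The same held in a fit on the leaf arrays alone (limma adjusted p = 0.242).

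HOX12 and NAC4 were the 2 of these 10 that took more than 50% of their fall in the last step. HOX12, a homeodomain-leucine zipper factor known in rice for panicle exsertion, averaged 9.38 ± 0.34, 9.33 ± 0.80 and 9.12 ± 0.41 (SD, n = 3) at stages 2, 3 and 4. It then read 7.28, 8.09 and 9.34 at stage 5 and 5.07, 7.16 and 6.84 at stage 6, so that 62.1% of its fall came between them. NAC4, a NAC-domain factor, averaged 11.61 ± 0.31, 11.57 ± 0.37 and 11.03 ± 0.15 before reading 8.87, 10.07 and 10.62 at stage 5 and 7.38, 8.46 and 7.73 at stage 6. For NAC4 the stage 5 and stage 6 arrays did not overlap, and those of stages 2 and 3 did. With the covariate the fall of HOX12 grew from 3.03 to 5.18 and 4.55. NAC4 kept a fall of 3.69 and 5.17 but did not fall at every step in the first fit.

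NAC4 was high in all leaf primordium arrays (11.55, 11.46 and 11.67) and lower in expanded leaf (7.74, 7.54 and 8.83), a difference of -3.53 (SE 0.39, limma adjusted p = 8.99e-07). The leaf difference of HOX12, -3.68 (SE 0.80, adjusted p = 0.00133), rests on expanded leaf arrays at 4.62, 7.48 and 3.17. Fitted on the leaf arrays alone, it was not called (adjusted p = 0.0534).

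The stress-linked NAC factors NAC5 and SNAC2 stayed high in both leaf groups. NAC5 averaged 9.62 ± 0.14 in leaf primordium and 10.80 ± 0.46 in expanded leaf, against 10.36 ± 0.45 at stage 2 and 7.36 ± 0.30 at stage 6 (SD, n = 3). Its leaf difference of 1.17 (limma adjusted p = 0.0245) fell below the threshold without leaf primordium replicate 1 or 2 or expanded leaf replicate 1 (adjusted p = 0.0645, 0.0657 and 0.116). SNAC2, at 11.15 ± 0.15 and 11.63 ± 0.39 in the leaf groups, fell from 11.60 ± 0.30 to 8.67 ± 0.33 in the stamen and was not called between leaves. The fall of NAC5, 3.00, became 2.62 and 1.33 with the covariate, the second outside the rule.

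BZIP52, a basic leucine zipper factor, read 11.49, 11.61 and 12.03 at stage 2, 11.72, 9.93 and 11.51 at stage 3 and 9.61, 8.83 and 8.40 at stage 4. It then read 7.55, 7.74 and 9.22 at stage 5 and 7.60, 7.26 and 7.04 at stage 6. Stages 3 and 4 were separated in every array, and this step was the largest. HSFA4D, a heat shock factor, averaged 8.52 ± 1.02 at stage 2 and 5.80 ± 0.05 at stage 6 (SD, n = 3), with the stage 2 arrays spread from 7.45 to 9.49. Its fall of 2.72 became 1.69 and 1.23 with the covariate, outside the rule in both fits. Neither was called between leaf groups.

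**Figure D4:**
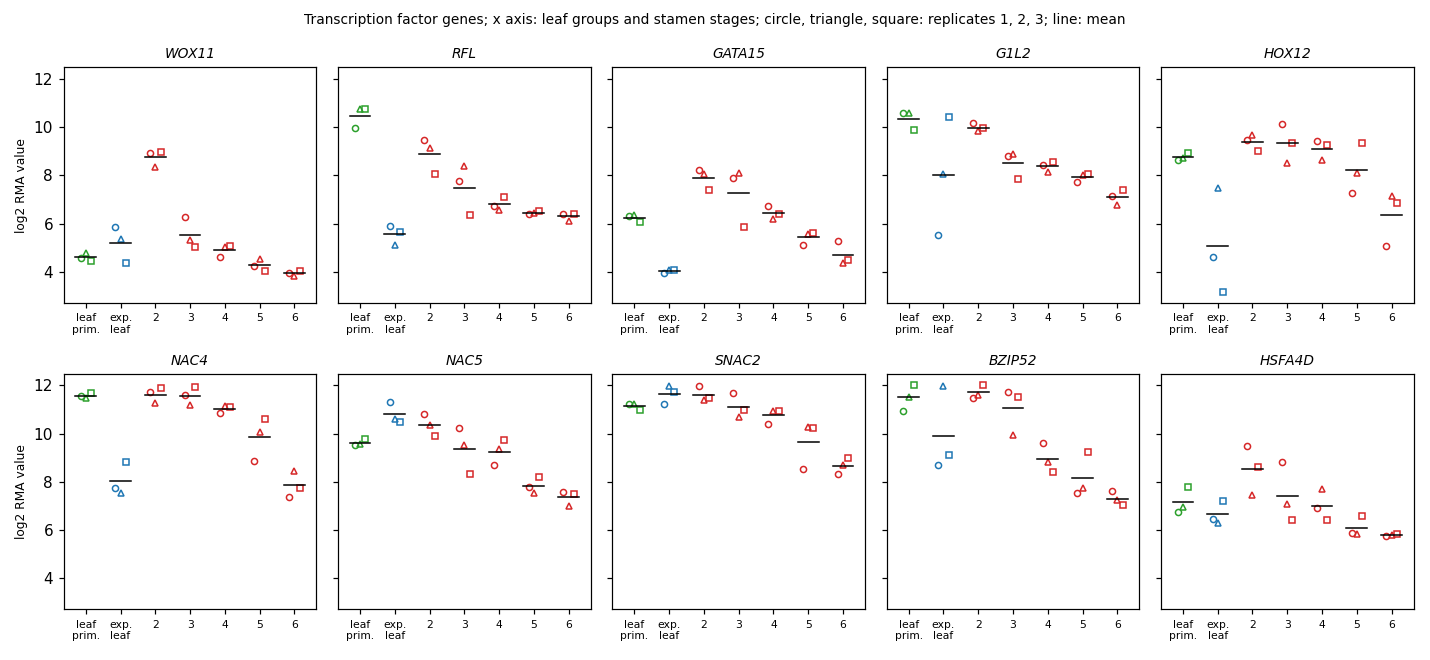
Log2 RMA values of the 10 named transcription factor genes in every array, by leaf group and stamen stage, with replicates 1, 2 and 3 as circles, triangles and squares and group means as lines. WOX11 dropped mainly between stages 2 and 3, whereas HOX12 and NAC4 dropped mainly between stages 5 and 6.

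Genes of hormone synthesis, inactivation and response made up 7 of the named genes, with falls from 2.30 to 4.78. Against expanded leaf the stamen mean was higher in 5 of the 7 (13.3% of all probe sets), the others being OPR1 and GA20OX3, which were not called. Against leaf primordium it was higher in 4 (7.59%) and lower in 2 (6.71%). As above, the stamen mean is not independent of the rule, and nothing is read from these counts.

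PID encodes the PINOID protein kinase, which sets on which side of a cell auxin carriers lie. It read 10.79, 11.03 and 11.22 at stage 2, 11.08, 11.09 and 9.26 at stage 3 and 10.33, 9.55 and 9.75 at stage 4. At stage 5 the arrays gave 9.19, 8.75 and 9.90, and at stage 6 8.96, 8.08 and 8.67. Neighbouring stages overlapped at all 4 steps, yet the lowest stamen array stood above every leaf array. Leaf primordium read 6.20, 5.84 and 5.62, and expanded leaf 6.39, 4.23 and 3.83. The stamen mean was 3.96 above the first (SE 0.43) and 5.03 above the second (SE 0.43). The stage values in this mean entered the rule, so for PID these differences are a description. Its fall of 2.44 was 2.53 with the 3' to 5' covariate over all arrays but 0.39 over the stamen arrays, where PID no longer met the rule.

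LOX1.1, a lipoxygenase of the pathway that makes oxylipins, read 10.17, 10.32 and 9.44 at stage 2 and 10.99, 8.74 and 10.01 at stage 3. The arrays of stage 4 spread over 9.24, 6.25 and 8.45 and those of stage 5 over 5.29, 6.25 and 8.11, before 5.09, 5.82 and 4.66 at stage 6. Every pair of neighbouring stages overlapped, and the levels at stage 6 were those of leaf (4.50 to 5.28 over both leaf groups).

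OPR1 encodes a 12-oxophytodienoate reductase. It fell from 11.10, 8.63 and 9.80 at stage 2 to 4.79, 5.25 and 5.41 at stage 6, through means of 7.96, 7.64 and 6.16. In leaf primordium it read 5.34, 5.32 and 5.86, like late stamens, and in expanded leaf 7.78, 6.96 and 9.23. That leaf difference was 2.48 (SE 0.59, limma adjusted p = 0.00275), and 1.87 (adjusted p = 0.0183) without expanded leaf replicate 3. The covariate reduced the fall of OPR1 from 4.70 to 3.07 and 3.21, within the rule.

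CYP734A6 fell evenly from 9.22, 9.36 and 9.84 at stage 2 to 6.87, 7.15 and 7.48 at stage 6, through means of 8.95, 8.59 and 8.01. The stamen mean was 1.82 above leaf primordium (SE 0.30) and 2.02 above expanded leaf (SE 0.30), again as a description. GA20OX3, an oxidase of the last steps of gibberellin synthesis, dropped mostly at once, from 9.94 ± 0.43 at stage 2 to 8.15 ± 0.39 at stage 3, and then slowly to 6.98 ± 0.35 at stage 6 (SD, n = 3). Its first step was 60.5% of the fall, and the leaf groups were not called different (9.08 ± 0.28 and 8.43 ± 0.63).

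IAA26, an Aux/IAA repressor of auxin response, had its highest level in leaf primordium, as RFL did. It read 8.09, 7.65 and 7.70 at stage 2, 6.08, 7.57 and 5.30 at stage 3 and 5.27, 5.14 and 5.51 at stage 6. Leaf primordium was above all of these at 9.32, 9.23 and 9.30, and expanded leaf was at 5.24, 4.99 and 4.96 (difference -4.22, SE 0.36, limma adjusted p = 3.55e-08). Its fall of 2.51 became 1.81 and 0.62 with the covariate, outside the rule in both fits. ILL6, of the family of enzymes that free auxin from amino acid conjugates, averaged 9.86 ± 0.27 at stage 2 and 6.79 ± 0.60 at stage 6 (SD, n = 3), and was also lower in expanded leaf than in leaf primordium, by -2.79 (adjusted p = 5.05e-05).

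Carbon and amino acid metabolism was the role of 8 named genes, with falls from 2.19 to 5.04. Of these, 3 were higher in expanded leaf than in leaf primordium (PPDKB, SAT1 and OSL2), 2 lower (AMY3D and HXK7) and 3 not called (IVD, MCCA and SAT4), against 9.84% of all probe sets called higher and 12.8% lower.

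AMY3D, an alpha-amylase that breaks down starch and is known in rice for its response to sugar shortage, read 12.30, 11.54 and 12.58 at stage 2 and 11.67, 10.03 and 11.71 at stage 3. Stage 4 gave 10.12, 9.51 and 9.43, stage 5 gave 7.55, 8.72 and 9.85, and stage 6 gave 6.45, 8.90 and 5.95. The means fell by 5.04, with overlap at every step, and by 7.39 and 7.92 with the 3' to 5' covariate. Leaf primordium, from germinating embryos, was higher still at 12.99, 13.25 and 13.56, while expanded leaf gave 4.45, 7.94 and 3.93 (difference -7.83, SE 0.89, limma adjusted p = 1.40e-06).

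HXK7, a hexokinase, phosphorylates sugars as they enter metabolism. It averaged 10.40 ± 0.39 at stage 2, 9.64 ± 1.07 at stage 3 and 7.73 ± 0.46 at stage 4, and 55.8% of its fall came between the last pair (SD, n = 3). In expanded leaf replicate 2 stood apart for it as for AMY3D, at 9.19 against 6.28 and 5.90.

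PPDKB, a pyruvate orthophosphate dikinase that interconverts pyruvate and phosphoenolpyruvate, had the opposite leaf pattern. It read 11.69, 11.19 and 12.18 at stage 2, 11.35, 9.46 and 10.90 at stage 3 and 9.63, 9.22 and 8.13 at stage 4. At stages 5 and 6 it read 7.24, 8.07 and 8.94, then 7.62, 7.63 and 8.08. Expanded leaf matched stage 2 at 11.70, 11.15 and 11.75, and leaf primordium matched stage 6 at 7.21, 7.08 and 7.77, a difference of 4.18 (SE 0.48, limma adjusted p = 1.48e-06).

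IVD and MCCA encode isovaleryl-CoA dehydrogenase and a subunit of methylcrotonyl-CoA carboxylase, which act one after the other in leucine breakdown. IVD fell from 12.35 ± 0.19 at stage 2 to 10.03 ± 0.43 at stage 6, and MCCA from 10.86 ± 0.44 to 8.54 ± 0.15 (SD, n = 3), each by 2.32. Both were among the 182 of the 285 members with stage 3 replicate 2 as the lowest array of its stage and stage 5 replicate 3 as the highest. SAT1 and SAT4, serine acetyltransferases of cysteine synthesis, fell by 2.23 and 2.67, and OSL2, a GABA transaminase, by 2.19. For SAT4 the fall became 1.09 and 1.14 with the covariate, and it no longer met the rule. SAT1 was higher in expanded leaf than in leaf primordium by 1.48 (limma adjusted p = 0.00342) and OSL2 by 1.64 (adjusted p = 0.00328).

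**Figure D5:**
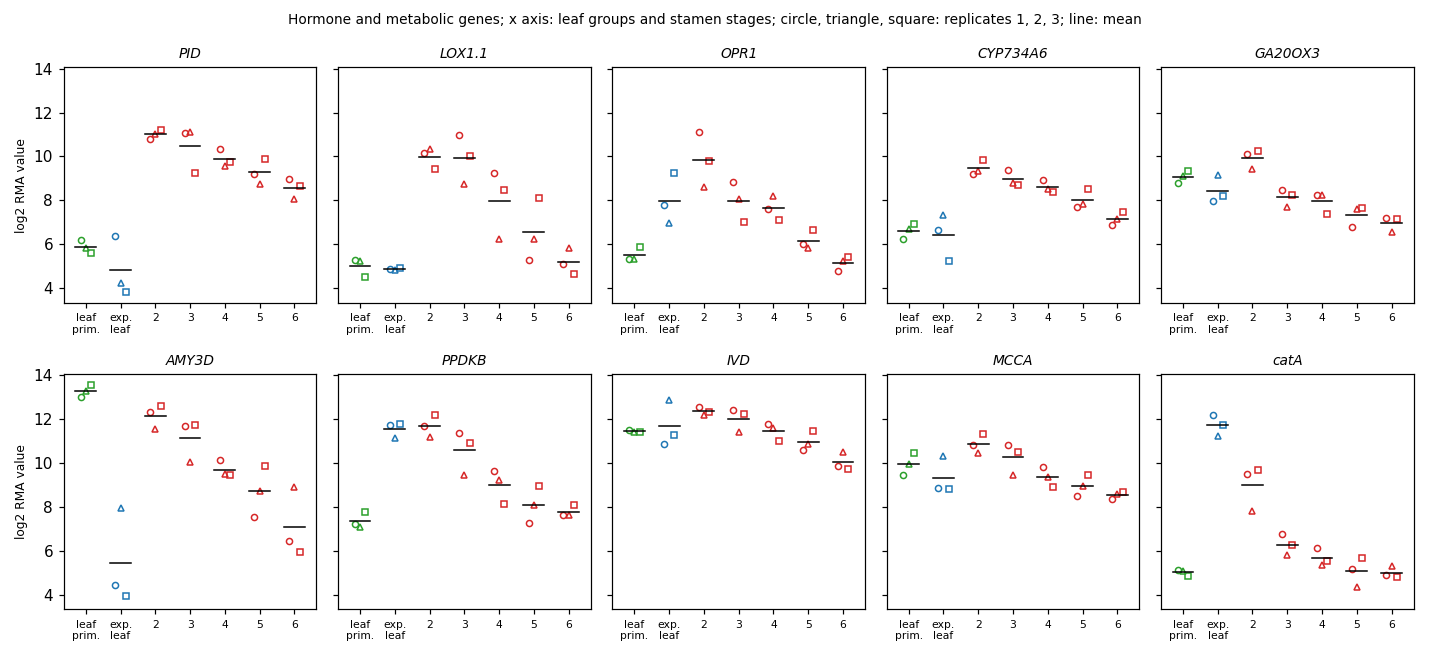
Log2 RMA values of 5 hormone genes (upper row) and 5 genes of metabolism and redox (lower row) in every array, by leaf group and stamen stage, with replicates 1, 2 and 3 as circles, triangles and squares and group means as lines. PID stood above every leaf array in all stamens, AMY3D was highest in leaf primordium, and PPDKB and catA were high in expanded leaf and low in leaf primordium.

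Genes known from seeds, stress and redox control made up 7 of the named genes. Of these, 4 were lower in expanded leaf than in leaf primordium (salT, R1C-Prx, RAB16B and HSP18.1), catA was higher, and RBBI3.3 and OsNrx1-1 were not called, against 12.8% of all probe sets called lower and 9.84% higher. In 6 of the 7 the first step was the largest. Leaf primordium was dissected from embryos of soaked seeds, so leaf age and seed state cannot be told apart in any difference between the leaf groups.

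The gene salT encodes a mannose-binding lectin induced by salt. It read 11.52, 10.77 and 11.92 at stage 2, 8.71, 7.32 and 10.02 at stage 3 and 9.02, 8.47 and 8.08 at stage 4, then 7.51, 8.25 and 9.15 at stage 5 and 6.89, 7.10 and 6.78 at stage 6. The first step took 60.7% of the fall of 4.48 (5.76 and 7.06 with the covariate), and stages 3, 4 and 5 overlapped widely. Leaf primordium was above every stamen array at 13.83, 14.09 and 14.25, and expanded leaf was at the stage 6 level (difference -7.07, SE 0.50, limma adjusted p = 3.48e-09).

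R1C-Prx, a 1-Cys peroxiredoxin of embryo and aleurone, fell from 9.31, 8.41 and 9.68 at stage 2 to 5.23, 5.78 and 5.16 at stage 6. Leaf primordium again stood above all stamen arrays (12.70, 12.72 and 12.34), and expanded leaf read 5.53, 5.61 and 5.25 (difference -7.12, SE 0.42, limma adjusted p = 3.15e-10). RAB16B, a dehydrin induced by abscisic acid, fell from 11.88 ± 0.12 to 9.23 ± 1.07 (SD, n = 3), by 2.65. With the 3' to 5' covariate over all arrays this fall was 0.43, outside the rule, and over the stamen arrays 5.11, within it. Its lowest stamen array read 7.97, whereas expanded leaf gave 4.22, 4.22 and 9.81. The high value is replicate 3, the array with the high 3' to 5' difference, and the leaf difference of -6.83 (limma adjusted p = 8.73e-05) became -8.70 (adjusted p = 6.13e-08) without it.

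The catalase gene catA, whose product removes hydrogen peroxide, was read by a pair of member probe sets that gave nearly the same values. One read 9.51, 7.80 and 9.68 at stage 2, 6.75, 5.82 and 6.25 at stage 3 and 4.88, 5.32 and 4.79 at stage 6, and 68.0% of its fall came in the first step. The other fell by 3.96, against 4.00. Expanded leaf exceeded every stamen array at 12.18, 11.23 and 11.70, and leaf primordium read 5.13, 5.07 and 4.86, a difference of 6.69 (SE 0.43, limma adjusted p = 8.28e-10) for the first and 7.05 for the second. Both probe sets, like those of TIP2-2 and HSP18.1, have the array's suffix for probes that may bind related transcripts. Those of TIP3-1, RBBI3.3, IVD, SAT4 and PSY1 have the suffix for probes shared by several transcripts, so their signals may not be of a single gene.

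RBBI3.3, a Bowman-Birk inhibitor of proteases, was high in all stage 2 arrays (12.18, 12.12 and 12.19) and fell to 7.36, 8.93 and 7.53 at stage 6. It was also high in leaf primordium, at 11.65 ± 0.13, and not called between leaf groups. HSP18.1, a small heat shock protein, had stage 2 arrays of 9.62, 7.44 and 10.24, so that replicate 2 lay within the range of stage 3 (6.52 to 7.83). Its fall of 2.87 became 1.08 and 1.26 with the covariate, outside the rule in both fits. Its leaf call was lost without expanded leaf replicate 2 (-1.66, limma adjusted p = 0.0534) and in a fit on the leaf arrays alone (adjusted p = 0.0701). OsNrx1-1, a nucleoredoxin, fell by 2.11, or by 1.37 and 2.42 with the covariate, the first outside the rule.

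Membrane transport was the role of 6 named genes, all called between leaf groups: YSL12, TIP2-2 and PHT1-1 higher in expanded leaf, and TIP3-1, ABCG36 and HMA2 lower (9.84% and 12.8% of all probe sets). TIP3-1 had the largest fall of all members. This aquaporin of the vacuole membrane, best known from seeds, read 10.75, 10.13 and 10.62 at stage 2, 9.52, 5.93 and 8.64 at stage 3 and 6.57, 6.13 and 5.46 at stage 4. It read 3.91, 4.39 and 6.92 at stage 5 and 3.84, 4.11 and 3.94 at stage 6, a fall of 6.54.

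At stage 3, TIP3-1 spread over a range wider than the step to stage 4, with replicate 2 low, and at stage 5 replicate 3 was high. Leaf primordium read 11.54, 11.45 and 11.04 and expanded leaf 4.43, 4.08 and 4.17, so the stage 2 and leaf primordium levels lay together at one end and the stage 6 and expanded leaf levels at the other (leaf difference -7.11, SE 0.73, limma adjusted p = 3.78e-07). TIP2-2, a related aquaporin, fell from 12.19 ± 0.46 to 9.67 ± 0.62 (SD, n = 3), by 2.52, which became 3.83 in both fits with the covariate. Expanded leaf exceeded leaf primordium by 1.75 for it (adjusted p = 0.00561), a call lost with array weights (adjusted p = 0.0871).

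YSL12, of the family that carries metals bound to nicotianamine, fell from 9.29 ± 0.04 at stage 2 to 4.68 ± 0.08 at stage 6 (SD, n = 3), and expanded leaf was at the stage 2 level (9.24 ± 0.55). HMA2, a heavy metal pump that moves zinc, fell from 6.03 ± 0.51 to 3.73 ± 0.46, and lower in expanded leaf by -1.74 (limma adjusted p = 1.69e-04). PHT1-1, a phosphate transporter, held 9.92, 9.45 and 9.40 on average through stages 2, 3 and 4 and took 54.2% of its fall of 2.30 in the last step, to 7.62 (3.40 and 3.45 with the covariate). ABCG36, an ABC transporter, fell by 2.99, which became 1.71 and 1.65 with the covariate, outside the rule. Its leaf difference of -1.58 (limma adjusted p = 0.0215) missed the threshold without leaf primordium replicate 3 (adjusted p = 0.0754) or expanded leaf replicate 1 (adjusted p = 0.117).

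Cell wall and phenylpropanoid genes were 4 of the named genes. EXLA1, an expansin-like wall protein, read 10.17, 10.37 and 10.50 at stage 2 and 6.19, 6.45 and 6.81 at stage 6, against 11.01, 11.20 and 10.42 in leaf primordium and 11.65, 11.79 and 11.63 in expanded leaf. All leaf arrays but leaf primordium replicate 3 lay above every stamen array. The stamen mean minus leaf primordium was -2.67 (SE 0.23), and minus expanded leaf -3.48 (SE 0.23). The stage values in this mean entered the rule, so both differences are a description. HCT2, a hydroxycinnamoyltransferase of the lignin route, averaged 9.15 ± 0.55 at stage 2, 5.32 ± 0.33 at stage 6, 5.20 ± 0.22 in leaf primordium and 9.83 ± 0.53 in expanded leaf (SD, n = 3). PAL and CAD2, phenylalanine ammonia-lyase and cinnamyl alcohol dehydrogenase at the start and end of that route, fell by 2.48 and 2.32 and were not called between leaf groups. With the 3' to 5' covariate the fall of PAL was 1.104, outside the rule, and 2.53, within it, and that of CAD2 was 1.18 and 1.93, both outside.

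Among the remaining named genes, PSY1, phytoene synthase of carotenoid synthesis, had expanded leaf above leaf primordium by 3.52 (limma adjusted p = 8.22e-05) and fell in the stamen from 9.88 ± 0.76 to 7.18 ± 0.23 (SD, n = 3), by 2.70 (3.60 and 4.30 with the covariate). URH2, a nucleosidase that frees uracil from uridine, fell from 9.43 ± 0.18 to 6.03 ± 0.24 and was above leaf primordium in all stamen arrays (leaf primordium 4.91, 4.99 and 5.05). CIPK14, a kinase of calcium signalling, fell from 12.07 ± 0.06 to 9.81 ± 0.58, by 2.26, which became 5.60 and 3.93 with the covariate. Its expanded leaf arrays disagreed, at 10.49, 11.63 and 6.54. Without the third of them it was called higher in that group (1.54, adjusted p = 0.0131), against 0.03 with it. The gene pinA fell from 12.73 ± 0.15 to 9.20 ± 0.76.

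Members whose annotation gives a locus alone were 167 of the 214 with a gene. The largest fall among them was that of LOC4337946, which read 10.95, 11.00 and 11.28 at stage 2, averaged 9.19 at stage 3 and read 4.81, 4.90 and 4.27 at stage 6. It was high in both leaf groups, with means of 11.71 and 12.17. Together with AMY3D, the most negative leaf differences were those of a pair of neighbouring genes on chromosome 11, LOC4351197 and LOC4351198, at -7.81 and -7.90 (limma adjusted p = 4.19e-10 and 1.27e-09). Both read 11.88 to 12.52 in leaf primordium and at most 8.33 in any stamen array. In the other direction, after catA, stood among members with a gene LOC4327172 (6.44), LOC4347808 (6.41), LOC4337998 (6.03) and LOC4342076 (5.80).

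Gene lists by symbol hold other genes of these pathways and markers of nearby tissues. The 12 lists held 105 genes on the array, of which 3 are members (WOX11, GA20OX3 and PID). For stage 6 minus stage 2, limma called 14 of the 105 higher (4.4% of all probe sets) and 12 lower (3.47%). With the 3' to 5' covariate the 12 became 4. The floral meristem list had 5 of 9 genes lower, with a list median of -1.34 against -0.03 in all probe sets: WOX11, the homeobox genes OSH1 (-3.37), OSH71 (-1.93) and OSH6 (-1.34), and LOG (-1.83), which makes active cytokinin. OSH1 fell from a mean of 8.74 at stage 2 to 5.33 at stage 5 and stood at 5.36 at stage 6. FON1, a receptor kinase that limits meristem size, was higher by 2.57.

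In the gibberellin list GA20OX3 was the 1 of 8 genes called lower and LOC4341343 the 1 called higher (3.94). It is 1 of 2 genes under the symbol KO1, an earlier enzyme, and the other, LOC4341347, was not called (0.66). Of 19 cytokinin genes, 3 were lower (LOG, RR1 and RR6) and 1 higher, and in the auxin transport and synthesis list PID was the 1 of 8 called lower. Early anther genes went the other way, with 5 of 7 higher and a median of 2.47. Of 11 organ polarity genes 2 were higher, of 12 SPL genes 2 were higher and 1 lower, and of 7 TCP genes 1 was higher. List medians were 0.08 for 10 growth-regulating factors and -0.18 for 3 carpel genes. Of 8 green tissue genes 1 was higher and 1 lower, and of 4 lemma and palea genes 1 was lower.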

How the data were processed

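For each of 21 arrays the authors deposited a log2 signal for every probe set, made with RMA per the submitters' processing notes (background correction, normalization and summary; version not given in the sources used here). Of 57381 probe sets, 123 controls were left out and 57258 tested. Names came from the annotation of assembly ASM3414082v1 (1 gene for 22436 probe sets, several for 95, none for 34727), and no coordinates are given. It holds no product descriptions, so a planned sorting of members by product name was not made and all 46 genes with an informative symbol were named. These include the planned ones, namely the 25 largest falls, list members and the largest leaf differences. Roles were assigned by hand afterwards. Members and lists were chosen with earlier results of these data known.

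One limma model (limma 3.58.1, R 4.3.3) with 7 group means was fitted to all arrays, and calls needed a Benjamini-Hochberg adjusted p under 0.05 over all probe sets and at least 2-fold, two-sided. The number of arrays limits the precision, and each p-value rests on 1 spread per probe set estimated over all 7 groups. The leaf comparison therefore draws on the stamen arrays too, whereas expanded leaf arrays correlated less with each other. A fit on the leaf arrays alone called 64 members higher and 59 lower in expanded leaf, against 83 and 80. In simulated data the leaf comparison recovered 84 of 100 probe sets changed by 1.5 and 96 of 100 changed by -3. Only these probe sets were changed, whereas the real comparison called 9.84% higher and 12.8% lower, so the cut-off for adjusted p differed too. The simulated spread was the same in all groups, so recovery at the lower agreement of the real expanded leaf arrays is not shown. Replicate numbers do not pair the groups in the labels. Alternatives were other array scalings, a filter on dim probe sets, other variance settings and thresholds, a replicate block, a 3' to 5' covariate and leaving out each array.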

Additional observations from a re-analysis of the deposited data

How the results depend on the processing

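The count of probe sets that met the rule was 285 as reported, 291 after quantile normalization (273 of them members), 276 after median centring (274), 384 with the 3' to 5' covariate over all arrays and 394 over the stamen arrays (chosen after seeing the data), and 203 to 325 when single arrays were left out. Leaving out single arrays gave 77 to 90 members higher and 70 to 91 lower in expanded leaf than in leaf primordium. The other settings gave 64 to 90 and 59 to 82, and the lowest came from a fit on the leaf arrays alone. Against leaf primordium the stamen mean was higher in 63 to 85 and lower in 74 to 93 members over all settings, and against expanded leaf in 61 to 89 and 74 to 105. With the replicate number as a block, 83 and 82 members were called between leaf groups, 74 and 86 against leaf primordium and 76 and 95 against expanded leaf, and 14 and 12 list genes between stages 6 and 2. Same-numbered arrays of different groups correlated at -0.43 to 0.48 (median 0.02, 63 pairs, 17 of them over 0.1) in their deviations. Arrays with different numbers were not compared, so this does not decide whether the numbers pair any of the groups. In the lists, 13 to 15 genes were higher and 9 to 13 lower with arrays left out, but 4 were lower with the 3' to 5' covariate, and the cause was not tested.

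Of 47 named probe sets, 27 had no lost call, gained call or turned sign between the leaf groups in any of the 30 or 31 settings run, 6 lost a call in at least 1, 9 gained one, and 7 turned sign without being called in the fit reported. Expanded leaf minus leaf primordium turned to 0.087 for LOX1.1 and 0.18 for CYP734A6 with the 3' to 5' covariate, and to 0.011 for SAT4 with array weights. With single arrays left out it ranged from -0.83 to 0.30 for RBBI3.3, -0.70 to 0.22 for SAT4, -0.38 to 0.61 for IVD, -0.67 to 0.39 for CYP734A6, -0.28 to 2.19 for OsNrx1-1 and -1.01 to 1.54 for CIPK14. The cause was not tested.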

Other observations

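Some member genes lie next to each other on the chromosome. In the annotation 12 pairs of member genes are direct neighbours, and both genes of a pair had the same leaf pattern in 4 of them. On chromosome 1, pinA (a fall of 3.54) adjoins RBBI3.3 (4.22), and both were high in both leaf groups. On chromosome 8, LOC4345561 and LOC4345562 fell by 3.69 and 2.66 and were low in both leaf groups. On chromosome 9, LOC4347807 and LOC4347808 fell by 4.45 and 4.93, but LOC4347807 was low in both leaf groups and LOC4347808 was high in expanded leaf. On chromosome 6, TIP2-2 (2.52), high in expanded leaf, adjoins LOC4340940 (3.00), low in both. On chromosome 2, CAD2 (2.32) adjoins LOC4328553 (2.71). Whether neighbours share probes or arose by duplication was not tested.

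A second member probe set was present for 9 genes. Their falls could differ by more than 1 on the log2 scale, as for LOC4334657 (5.11 and 3.84) and LOC4347807 (4.45 and 2.62), or agree, as for LOC4352571 (3.10 and 3.08).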
